A study of Mus musculus with 9 samples.

Results

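Mitosis is the stage of the cell cycle in which the copied chromosomes are attached to a spindle of microtubules, pulled apart and shared out between the daughter cells. The genes described here encode the machinery of that stage, and 44 of them were chosen by name, from the kinases that start mitosis to the proteins that divide the cell. They were followed in the stromal vascular fraction (SVF), the cells of stroma, vessels and blood that stay behind when fat is digested with enzymes and its adipocytes float away. SVFs came from the inguinal fat of wild type Balb/c mice, 10 weeks old per the labels, with 3 individual mice on each of days 0, 1 and 3. Days 1 and 3 count from the surgical priming of the fat, which the labels describe as an injury and the study's methods as injury with ischemia, and day 0 is taken here as the nonprimed baseline. RNA was hybridised to 9 Affymetrix mouse arrays, 1 per mouse, so that each value below is the MAS5 signal of 1 probe set, a brightness on a linear scale in which the trimmed mean of every array is 500. Mouse numbers 1 to 3 within a day are the replicate numbers of the labels and link no mouse to one of another day.

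Of the 44 genes, 43 are named on the array by 93 probe sets that carry a single gene symbol. Cyclin B1 (Ccnb1) was not analysed here because no probe set carried its name as the only symbol in the annotation used. Probe sets of several symbols were left out. A gene was tested if all 3 arrays of some day called one of its probe sets present, and 42 passed, out of 11796 genes tested and 18193 named. Cdc25c, the phosphatase that activates CDK1, did not pass. All 42 were present on every day 3 array, 36 on every day 1 array and 33 on every day 0 array. Plk1, Bub1b, Kif4 and Melk passed only through their presence on day 3, so a higher signal on that day was favoured by the filter for these.

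In dividing cells these genes are switched on together late in the cell cycle. CDK1 with its cyclins drives entry into mitosis, Aurora and polo-like kinases build the spindle, and kinetochores tie chromosomes to it. The spindle assembly checkpoint holds the anaphase-promoting complex back until every chromosome is attached, after which separase splits the sister chromatids and the contractile ring divides the cell. In resting cells most of them are kept silent by the DREAM complex, which binds a promoter element called the cell cycle genes homology region (CHR), while the factor NF-Y binds CCAAT boxes nearby.

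The promoters of the 5 members with the greatest change on day 3 are shown because members that move together late in the cycle are known to share these elements. RefSeq windows on GRCm38.p6, reaching from 250 bases before to 50 bases after the annotated start, were given for 38 of the 44 genes. They belong to Anln (chr9:22389157-22389456, minus strand), Cdk1 (chr10:69352863-69353162, minus strand), Cenpe (chr3:135212313-135212612, plus strand), Ect2 (chr3:27153829-27154128, minus strand) and Ube2c (chr2:164769679-164769978, plus strand). They are written 5′ to 3′ on the strand of the gene, and capitals mark CHR letters (TTTGAA, or TTCAAA on the other strand) and CCAAT letters (CCAAT, or ATTGG on the other strand).
Anln: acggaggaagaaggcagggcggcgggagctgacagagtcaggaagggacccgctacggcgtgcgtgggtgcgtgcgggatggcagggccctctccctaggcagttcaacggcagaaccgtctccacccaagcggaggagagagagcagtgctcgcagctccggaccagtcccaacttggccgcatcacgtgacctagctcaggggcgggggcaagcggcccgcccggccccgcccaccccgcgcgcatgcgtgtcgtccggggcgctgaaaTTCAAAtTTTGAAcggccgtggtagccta
Cdk1: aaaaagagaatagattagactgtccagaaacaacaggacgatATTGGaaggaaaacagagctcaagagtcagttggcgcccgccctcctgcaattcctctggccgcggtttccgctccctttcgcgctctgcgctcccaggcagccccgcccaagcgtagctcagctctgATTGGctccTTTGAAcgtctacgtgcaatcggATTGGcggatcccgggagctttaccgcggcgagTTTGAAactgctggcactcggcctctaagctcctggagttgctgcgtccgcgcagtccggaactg
Cenpe: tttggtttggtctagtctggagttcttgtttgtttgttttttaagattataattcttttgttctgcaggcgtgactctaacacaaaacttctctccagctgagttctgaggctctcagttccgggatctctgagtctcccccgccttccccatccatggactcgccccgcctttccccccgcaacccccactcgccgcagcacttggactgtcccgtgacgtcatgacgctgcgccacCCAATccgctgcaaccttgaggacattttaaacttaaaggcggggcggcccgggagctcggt
Ect2: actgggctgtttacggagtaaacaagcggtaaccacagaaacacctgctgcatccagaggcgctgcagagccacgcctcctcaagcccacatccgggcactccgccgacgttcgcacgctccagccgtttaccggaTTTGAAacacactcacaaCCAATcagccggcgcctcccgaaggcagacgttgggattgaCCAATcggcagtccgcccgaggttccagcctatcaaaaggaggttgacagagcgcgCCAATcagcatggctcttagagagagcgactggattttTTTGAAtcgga
Ube2c: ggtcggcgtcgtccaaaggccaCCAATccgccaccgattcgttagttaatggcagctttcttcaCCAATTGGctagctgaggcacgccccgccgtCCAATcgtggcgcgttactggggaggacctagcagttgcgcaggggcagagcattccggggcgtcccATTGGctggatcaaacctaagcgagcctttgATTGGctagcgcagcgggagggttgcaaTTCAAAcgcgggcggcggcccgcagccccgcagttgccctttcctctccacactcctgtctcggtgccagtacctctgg
The Anln window held 2 CHR matches that begin 22 and 29 bases after the start, and no CCAAT. The Cdk1 window held 2 CHR matches and 3 CCAAT matches, the Ect2 window 2 and 3, and the Ube2c window 1 and 6. The Cenpe window held 1 CCAAT match and no CHR match.

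Across the members, CHR letters on either strand stood in the windows of 28 of 38 genes (73.7%), against 20.2% of the 27025 genes with a window. CCAAT letters stood in 29 of 38 (76.3%), against 41.1% of all genes, and both motifs in 25 of 38 (65.8%), against 7.97%. E2F letters (TTTCGCGC, TTTGGCGC or TTTCCCGC), which are common in genes of S phase, stood in 1 of 38 (2.63%), against 2.12%. The CHR matches lay on both sides of the start, at a median distance of 26.5 bases from it in either direction over 38 matches, of which 28 were within 50 bases. The CCAAT matches lay at a median of 62.5 bases before the start over 76 matches, and matches of different motifs overlapped once. A match describes letters in these windows only, and the binding of a factor was not measured.

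**Figure D1:**
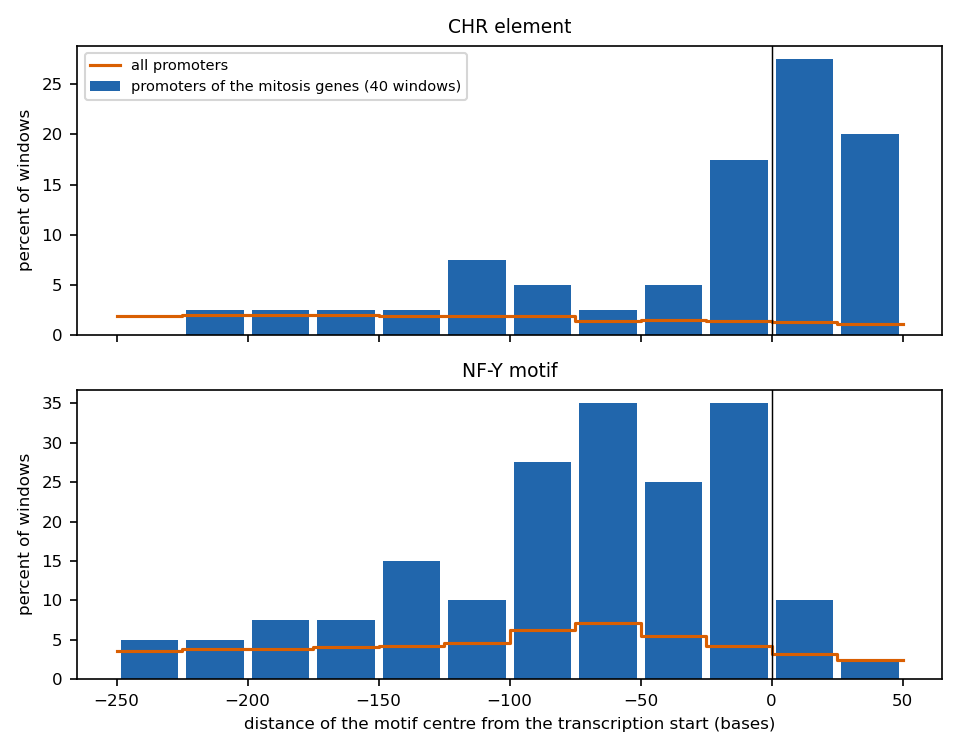
Percent of promoter windows with a CHR element (top) or an NF-Y motif, the CCAAT letters (bottom), in each bin of 25 bases from the transcription start. Bars are the 40 windows of the 38 members with a window (2 have 2) and lines are all promoters. CHR matches of the members gather within 50 bases of the start and CCAAT matches before it.

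On day 3 nearly the whole set was higher than on day 0. In limma, 41 of the 42 members were called higher at an adjusted p under 0.05 and 0 lower, where 13.6% of all genes tested were called higher and 12.5% lower. The median change of the members was 1.69 on the log2 scale, against -0.026 over all genes, and estimates ran between 0.83 for Cenpa and 3.17 for Anln. At least a 2-fold rise was called for 36 members, against 4.44% of all genes. The signals of all 3 day 3 mice lay above those of all 3 day 0 mice in 42 of 42 members, against 22.6% of all genes. Among the 33 members that were present on every day 0 array, whose passing did not depend on day 3, 33 were called higher, with a median of 1.74. Bub1b was the member that was not called.

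Day 3 also stood above day 1, in a comparison that uses the same day 3 arrays. Of the 42 members 41 were called higher and 0 lower, where 9.66% of all genes were called higher and 4.54% lower. The median was 1.81, against 0.085 over all genes, 39 members were called at least 2-fold higher (2.08% of all genes), and day 3 mice lay above all day 1 mice in 42 of 42 members, against 23.4% of all genes. Cks2 was not called (0.39 ± 0.18, adjusted p = 0.155).

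On day 1 few of the members were called different from day 0. Pttg1 was called higher, 4 members (Racgap1, Cdc20, Ccnb2 and Kif20a) were called lower, and 37 were not called, where 10.7% of all genes were called higher and 17.9% lower. The median change was -0.11, beside -0.13 over all genes, and 17 of 42 estimates were above 0. A rise of at least 2-fold was called for 0 members, against 3.65% of all genes. These medians follow the scaling of the arrays: after median centring the members stood at 0.063 and all genes at 0.044, and after quantile normalization at 0.095 and -0.035. Day 1 mice were all above day 0 mice in 2 members (13.8% of all genes) and all below in 7 (26.1%).

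**Figure D2:**
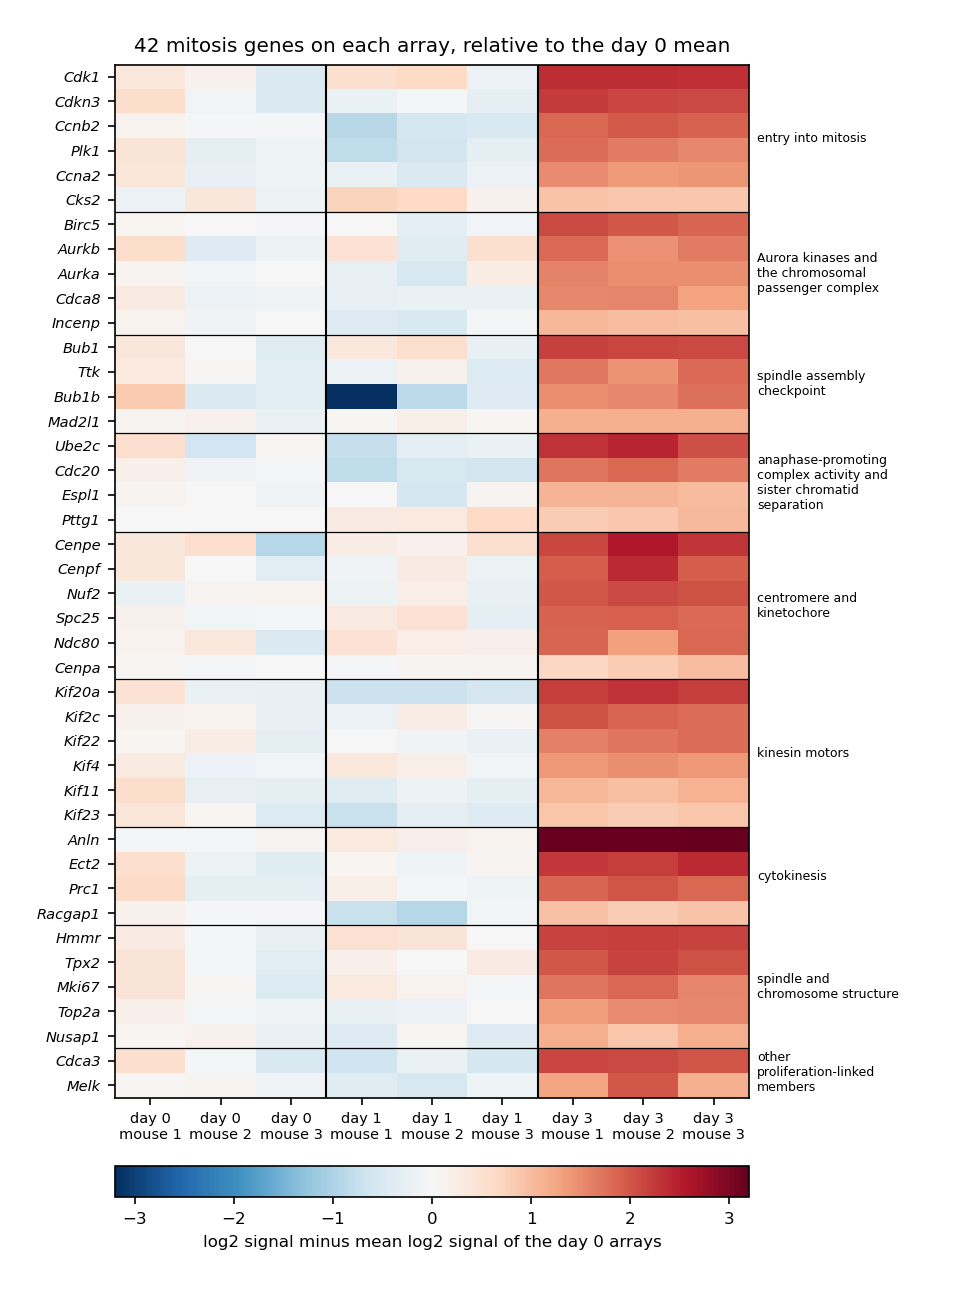
Log2 signal of the 42 members tested (rows, grouped by role) on each of the 9 arrays, relative to the mean of the day 0 arrays of that gene (colour scale). The 3 day 3 columns are red in every row, with per-mouse medians of 1.76, 1.78 and 1.78, and the deepest blue cell is Bub1b in day 1 mouse 1.

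The mice of day 3 were closely alike. The median of the members relative to the day 0 mean was 0.27, -0.036 and -0.19 in the day 0 mice, -0.14, -0.086 and -0.14 in the day 1 mice, and 1.76, 1.78 and 1.78 in the day 3 mice. The median SD of the members within a day was 0.292 on day 0, 0.202 on day 1 and 0.0910 on day 3 on the log2 scale, beside 0.179, 0.214 and 0.133 over all genes. Day 0 mouse 1 gave the highest signal of its day in 32 of 42 members, against 32.7% of all genes. The means of the marker lists (relative to day 0) differed in where this mouse stood. It was highest for B cells (0.47, with -0.23 and -0.24 in the other day 0 mice). The same held for erythroid cells (0.46 over 2 genes, with -0.30 and -0.16) and adipocytes (0.36, with -0.15 and -0.21). Germinal centre B cells followed, at 0.16, with 0.065 and -0.22. It was lowest for endothelial cells (-0.27), macrophages and monocytes (-0.15), T cells (-0.047), stromal cells (-0.034) and activated fibroblasts (-0.0275). For neutrophils it lay between the other day 0 mice, at 0.11. Without that mouse 41 members were still called higher on day 3, with a median of 1.89, and the part of these cell types in the day 0 level was not tested.

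**Figure D3:**
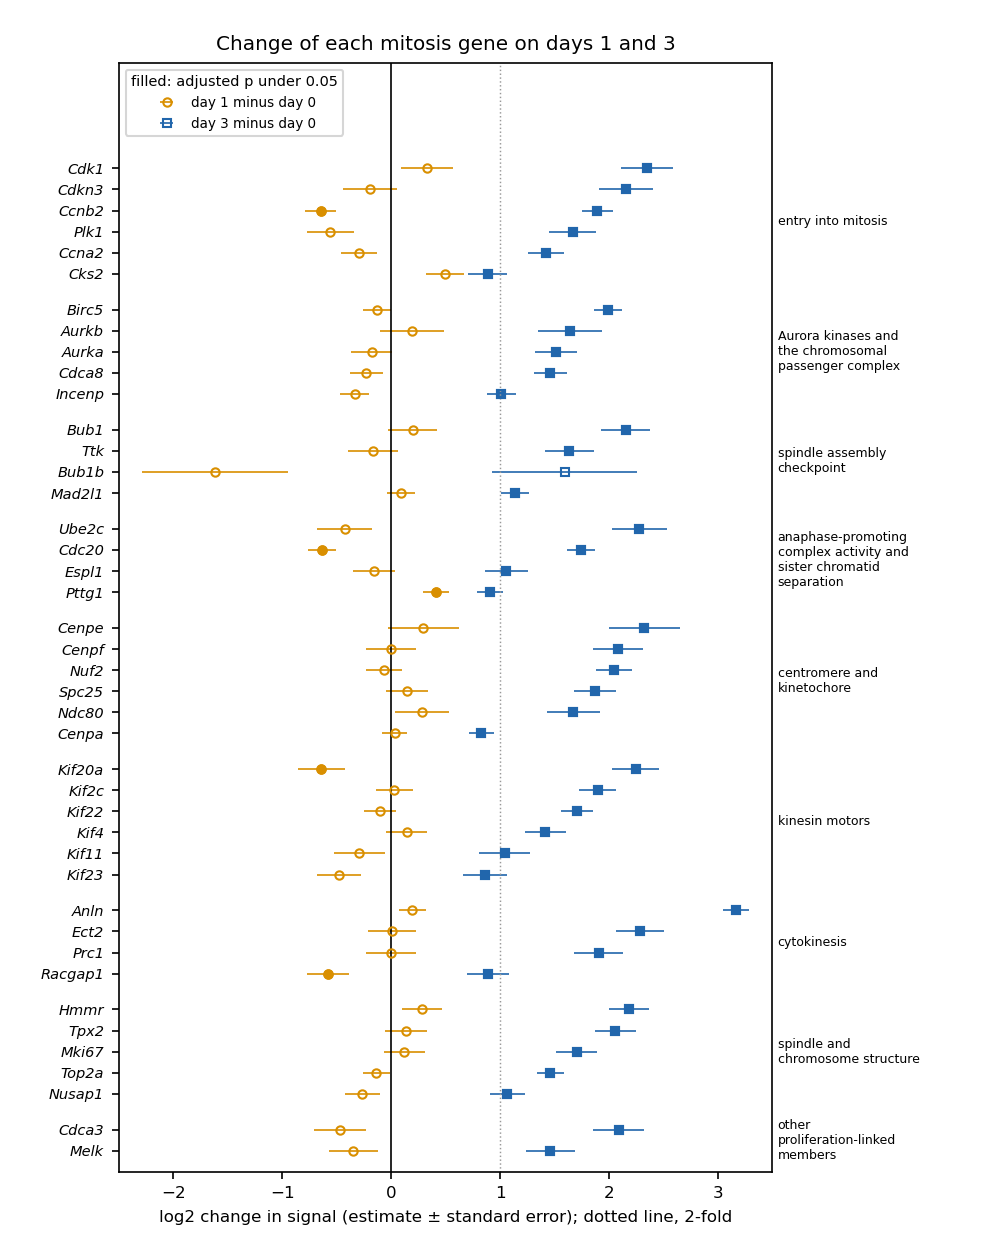
Log2 change of each member on day 1 (circles) and day 3 (squares) against day 0, with limma's standard error and genes grouped by role. Filled symbols have an adjusted p under 0.05. All squares but that of Bub1b are filled and lie at 0.83 or higher, while 5 circles are filled.

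Among the genes of entry into mitosis, all 6 tested rose on day 3, with a median of 1.78. Cdk1, the kinase that starts mitosis, had signals of 355, 307 and 201 on day 0, 402, 439 and 246 on day 1 and 1432, 1442 and 1409 on day 3. Its day 0 and day 1 mice overlapped, and day 3 stood 5.10-fold above day 0 (2.35 ± 0.24, adjusted p = 4.24e-05). Cdkn3, a phosphatase that acts on cyclin-dependent kinases, gave 111, 70.7 and 54.4 on day 0, 64.7, 73.4 and 60.9 on day 1 and 354, 334 and 324 on day 3, a 4.47-fold rise on day 3 (2.16 ± 0.25, adjusted p = 1.05e-04). Ccnb2, a B-type cyclin that partners CDK1, gave 343, 298 and 304 on day 0, 171, 212 and 225 on day 1 and 1121, 1217 and 1169.6 on day 3. For Ccnb2 the 3 days did not overlap, with day 1 the lowest: day 3 was 3.72-fold higher than day 0 (1.89 ± 0.14, adjusted p = 4.92e-06), and day 1 was lower than day 0 (-0.65 ± 0.14, adjusted p = 0.00701). Plk1, the polo-like kinase, was not called present on any array of days 0 and 1, with signals of 164, 101 and 112 on day 0, 70.0, 82.0 and 100.4 on day 1 and 426, 391 and 354 on day 3. Its day 3 signal was 3.18-fold higher than day 0 (adjusted p = 2.63e-04), a ratio to signals that were not called present. Ccna2, the cyclin of S phase and G2, rose by 1.42 ± 0.17, and Cks2, a small subunit of the CDK complex, by 0.89 ± 0.18, the least of the group and with day 1 mice already at 3191, 2996 and 2133 against 1694, 2488 and 1724 on day 0 (0.50 ± 0.18, adjusted p = 0.0536).

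Aurora kinases and the chromosomal passenger complex, which corrects faulty attachments at the centromere, were higher on day 3 in 5 of 5 genes, with a median of 1.51. Birc5 (survivin) gave 349, 330.0 and 321 on day 0, 328, 273 and 314 on day 1 and 1452, 1329 and 1207 on day 3, so that the day 3 mice were 3.98-fold above day 0 (1.99 ± 0.13, adjusted p = 2.24e-06). Aurkb, the kinase of the complex, gave 136, 68.9 and 82.2 on day 0, 126, 69.9 and 131 on day 1 and 322, 252 and 289.7 on day 3, with a wider spread on days 0 and 1 and a change of 1.64 ± 0.30 on day 3 (adjusted p = 0.00212). Aurka, the kinase of the spindle poles, rose by 1.51 ± 0.19, Cdca8 (borealin) by 1.46 ± 0.15 and the scaffold Incenp by 1.01 ± 0.13. None of the 5 was called on day 1, where estimates ran between -0.33 for Incenp and 0.19 for Aurkb.

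For the spindle assembly checkpoint, 3 of 4 genes rose on day 3. Bub1, a checkpoint kinase at the kinetochore, gave 179, 141 and 107 on day 0, 176, 197 and 118 on day 1 and 635, 617 and 604 on day 3, a change of 2.15 ± 0.22 on day 3 (adjusted p = 5.38e-05). Ttk (MPS1), the kinase that starts the checkpoint signal, gave 123, 101 and 77.4 on day 0, 87.1, 108 and 72.3 on day 1 and 318, 265 and 344 on day 3 (1.64 ± 0.23, adjusted p = 3.93e-04). Mad2l1, which binds and holds CDC20, rose by 1.14 ± 0.13. Bub1b (BUBR1) gave 153, 61.8 and 67.0 on day 0, 7.08, 47.7 and 64.9 on day 1 and 239, 249 and 292 on day 3. Its day 3 mice lay above all others, but day 1 mouse 1 was far below the rest, which widened the error of the fit: the change on day 3 was 1.59 ± 0.67 against day 0 (adjusted p = 0.101) and 3.21 ± 0.67 against day 1 (adjusted p = 0.00924). Bub1b was not called present on any day 1 array. Day 3 was 9.26-fold above day 1, a value that rests on day 1 mouse 1. Without that mouse the change of day 3 against day 1 was 2.22 on the log2 scale, and that against day 0 had an adjusted p of 0.00423. A second Bub1b probe set, which missed the filter with 2 of 3 day 3 arrays present, gave 144, 134 and 102 on day 0, 102, 78.3 and 66.3 on day 1 and 303, 314 and 269 on day 3, so that its day 3 signals were higher than day 1 by 1.87 on the log2 scale.

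Genes that release the sister chromatids were all higher on day 3. Ube2c, the enzyme that hands ubiquitin to the anaphase-promoting complex, gave 422, 190.1 and 303 on day 0, 174, 231 and 249 on day 1 and 1444, 1578 and 1219 on day 3, a 4.85-fold rise (2.28 ± 0.25, adjusted p = 8.37e-05). Cdc20, the activator of that complex in mitosis, gave 735, 608 and 619.6 on day 0, 374, 454 and 436 on day 1 and 2149, 2349 and 2063 on day 3. Day 1 was below day 0 in every mouse for Cdc20 (-0.63 ± 0.13, adjusted p = 0.00515), and day 3 was above it (1.74 ± 0.13, adjusted p = 4.92e-06). Espl1 (separase), the protease that opens cohesin, rose by 1.06 ± 0.19 on day 3. Pttg1 (securin), the inhibitor of separase, was the one member called higher on day 1. Its signals were 1985, 2035 and 2030.0 on day 0, 2461, 2514 and 3124 on day 1 and 3534, 3697 and 4135 on day 3, with no overlap between the days. It was higher by 0.41 ± 0.12 on day 1 (adjusted p = 0.0242), by 0.91 ± 0.12 on day 3 (adjusted p = 2.54e-04), and by 0.49 ± 0.12 on day 3 against day 1 (adjusted p = 0.0183). The last call was lost without day 1 mouse 1 or 2, or day 3 mouse 2 or 3 (adjusted p between 0.0572 and 0.0718).

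Centromere and kinetochore genes rose on day 3 in 6 of 6 cases, with a median of 1.96, and none was called on day 1. Cenpe, a kinesin that walks chromosomes to the middle of the spindle, gave 90.9, 102 and 37.6 on day 0, 82.6, 77.9 and 101 on day 1 and 309, 415 and 342 on day 3 (2.33 ± 0.33 on day 3, adjusted p = 4.36e-04). Day 0 mouse 3 was the lowest there and day 3 mouse 2 the highest. Cenpf, a large protein of the outer kinetochore, gave 116, 90.1 and 71.2 on day 0, 84.0, 109 and 81.1 on day 1 and 344, 478 and 347 on day 3 (2.09 ± 0.23 on day 3, adjusted p = 7.77e-05). In the NDC80 complex, which grips the microtubule, Nuf2 rose by 2.05 ± 0.17, Spc25 by 1.87 ± 0.19 and Ndc80 by 1.67 ± 0.24. Cenpa, the histone that marks the centromere, was the brightest of the group on day 0 and changed least, with 1994, 2207 and 2501 on day 3, against 1293, 1226 and 1236 on day 0 (0.83 ± 0.12, adjusted p = 4.23e-04).

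The 6 kinesin motors were all higher on day 3. Kif20a, a motor of the central spindle needed for cytokinesis, gave 115, 72.1 and 70.6 on day 0, 51.8, 51.8 and 57.5 on day 1 and 388, 413 and 390.5 on day 3. Its day 3 mice were 4.74-fold above day 0 (2.25 ± 0.22, adjusted p = 3.07e-05) and 7.39-fold above day 1 (2.89 ± 0.22, adjusted p = 2.54e-05). Kif2c (MCAK), which takes microtubules apart at the centromere, gave 152, 151 and 117 on day 0, 123, 163 and 143 on day 1 and 569, 506 and 484 on day 3 (1.90 ± 0.17, adjusted p = 1.97e-05). The chromosome-arm motors Kif22 and Kif4 rose by 1.71 ± 0.15 and 1.42 ± 0.19. Kif11, which pushes the spindle poles apart, rose by 1.04 ± 0.23, and Kif23, a part of centralspindlin, by 0.86 ± 0.20, the least of the motors.

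Cytokinesis held the member with the greatest change. Anln (anillin), the scaffold of the contractile ring, gave 194, 192 and 211 on day 0, 245, 223 and 216 on day 1 and 1777, 1777 and 1805 on day 3. The 3 mice of each day lay close together, and day 3 was 8.99-fold above day 0 (3.17 ± 0.12, adjusted p = 3.41e-08). Ect2, which switches on RhoA at the division plane, gave 197, 121 and 103 on day 0, 140.5, 122 and 144 on day 1 and 646, 621 and 706 on day 3, a 4.87-fold rise (2.29 ± 0.22, adjusted p = 3.07e-05). Prc1, which bundles the microtubules of the central spindle, rose by 1.91 ± 0.23. Racgap1, the partner of KIF23 in centralspindlin, gave 359.6, 312 and 314 on day 0, 200.4, 173 and 307 on day 1 and 628, 581 and 619.9 on day 3, lower on day 1 (-0.57 ± 0.19, adjusted p = 0.0441) and higher on day 3 (0.89 ± 0.19, adjusted p = 0.00599).

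**Figure D4:**
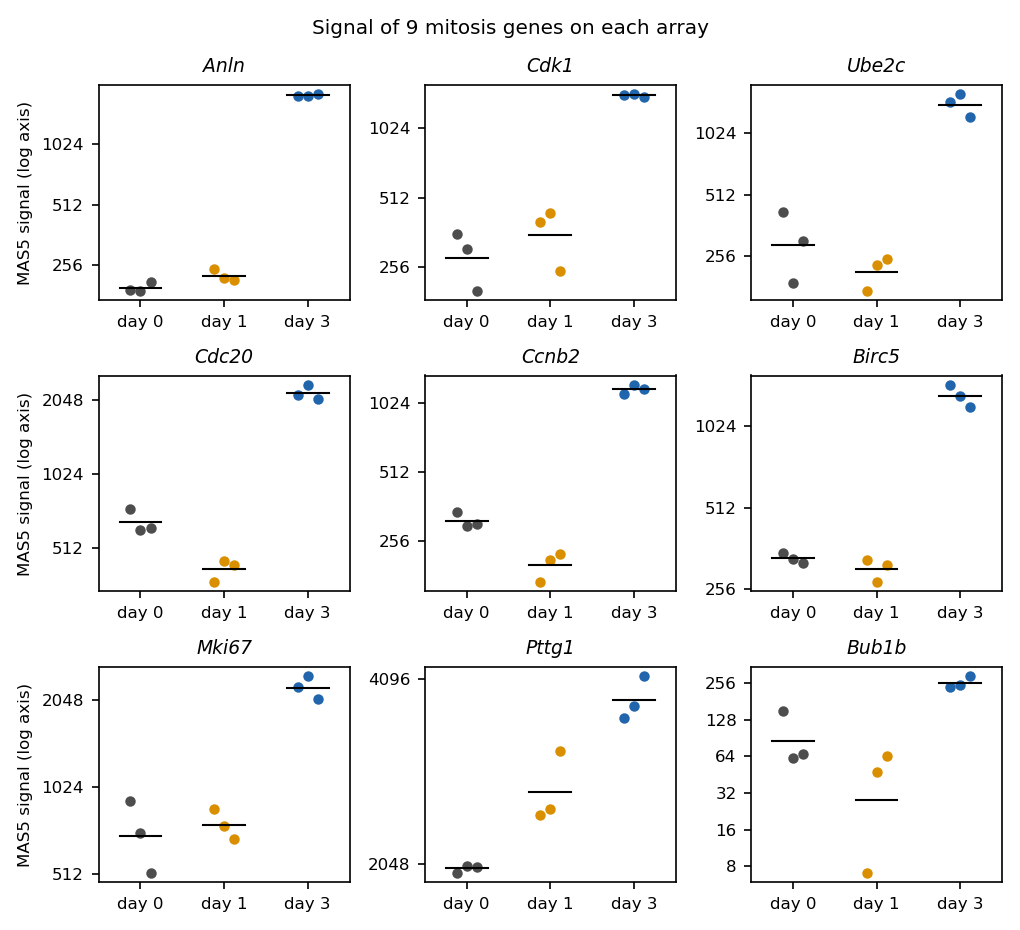
MAS5 signal (log axis, a scale of its own for each gene) of 9 members on the 3 arrays of each day, with a line at the geometric mean. Anln and Cdk1 stand apart on day 3, Cdc20 and Ccnb2 are lowest on day 1, Pttg1 is higher on each later day, and Bub1b has 1 low array on day 1.

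Proteins of spindle and chromosome structure followed, with 5 of 5 genes higher on day 3. Hmmr, a microtubule-binding protein of the spindle, gave 147, 120.4 and 104 on day 0, 171, 162 and 121 on day 1 and 554, 570.4 and 548 on day 3 (2.18 ± 0.18, adjusted p = 1.09e-05). Tpx2, which activates Aurora A on the spindle, gave 209, 151 and 122 on day 0, 174, 158 and 186 on day 1 and 615, 705 and 639 on day 3 (2.06 ± 0.19, adjusted p = 2.42e-05). Mki67, the Ki-67 antigen that coats mitotic chromosomes and is used to stain cycling cells, rose by 1.71 ± 0.19, and Top2a, the enzyme that untangles sister DNA, by 1.46 ± 0.13. Nusap1, a microtubule bundler, rose by 1.07 ± 0.16. Of the last pair, Cdca3, a cytosolic protein tied to mitotic entry, gave 234, 156 and 113 on day 0, 103, 138 and 109 on day 1 and 704, 696 and 645 on day 3 (2.09 ± 0.24, adjusted p = 9.33e-05). Melk, a kinase of proliferating cells, gave 142, 148 and 129 on day 0, 108, 97.2 and 127 on day 1 and 337, 556 and 305 on day 3 (1.46 ± 0.22, adjusted p = 7.83e-04), with day 3 mouse 2 above the other day 3 mice.

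Several calls on day 1 depended on single arrays. Ccnb2 and Cdc20 stayed called lower whichever array was left out. Racgap1 was lost without any array other than day 1 mouse 3 (adjusted p between 0.0603 and 0.150), and under both rescalings. Kif20a was lost without day 0 mouse 1, day 1 mouse 1 or 2, or any day 3 mouse (between 0.0676 and 0.157), and under both rescalings as well. Pttg1 was lost without day 0 mouse 1 or 3 (0.0651 and 0.0662). Other members passed instead when an array was left out: without day 1 mouse 3, Cks2 and Cdk1 were called higher and Plk1, Incenp and Bub1b lower; without day 0 mouse 2, Cks2 higher and Plk1 and Ube2c lower; and without day 0 mouse 3, Cdca3 and Kif23 lower. The number called lower ran between 2 and 7.

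Probe sets of the same gene mostly moved the same way. Of the 73 probe sets of members that passed the filter, 69 had an estimate above 0 for day 3 against day 0. The 4 below 0 were 2 of Cenpa, 1 of Pttg1 and 1 of Top2a, each dimmer than the probe set used for its gene. For Pttg1 that probe set gave 192, 219 and 264 on day 3, against 255, 236 and 263 on day 0. Estimates below 0.5 were found for 7 of the 73. Beside those 4 they were dimmer probe sets of Cdca3 (0.49 and 0.26, against 2.09 for the one used) and Spc25 (0.28, against 1.87). Which transcripts these probe sets read was not tested. Those that did not pass include both of Cdc25c: the first was absent on all 9 arrays, with signals of 111, 83.6 and 104 on day 3, against 4.31, 37.1 and 8.54 on day 0, and the second was present on 1 day 3 array.

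Other genes of the same machinery were taken from lists of mitosis and cell cycle genes and are read beside the 13.6% of all genes called higher and 12.5% called lower on day 3. In the kinetochore and centromere list 16 of 23 tested were called higher and 0 lower, with a median of 0.89, and of the 18 that were present on every day 0 array 12 were higher. Kntc1 (ROD), which brings dynein to the kinetochore, changed by 2.14 ± 0.25 (adjusted p = 1.38e-04), and Cenpi, an inner kinetochore protein not called present on day 0, was 4.71-fold higher. Ska3, of the SKA complex, had dim signals of 95.5, 91.4 and 116 on day 3, against 30.6, 5.07 and 47.7 on day 0, where 1 array called it present (adjusted p = 0.0453). In the spindle and cytokinesis list 16 of 20 were higher and 0 lower, with a median of 1.20, and of the 12 present on every day 0 array 9 were higher. Shcbp1 changed by 2.12 ± 0.22 and the centrosome kinase Nek2, present on 2 of 3 day 0 arrays, by 1.77 ± 0.22. Iqgap3, absent on days 0 and 1, was 4.37-fold higher than on day 0. As with Plk1 among the members, 4 genes of the first list (Spc24, Cenpi, Cenpm and Ska3) and 7 of the second (Kif18b, Kifc1, Spag5, Nek2, Stil, Cit and Iqgap3) passed the filter only through day 3, which favoured a higher signal there. On day 1, 2 of the 23 were called higher (Cenpk and Zwint) and 0 lower in the first list. In the second, 0 of 20 were higher and 1 lower (Spag5), beside 10.7% higher and 17.9% lower of all genes. Neither list was tested as a set.

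Of 8 condensin genes, which compact chromosomes for mitosis, 5 were called higher on day 3 and 0 lower, with a median of 1.03: Ncapg2 changed by 1.48 ± 0.15, Ncapg by 1.44 ± 0.25 and Ncaph by 1.28 ± 0.15. On day 1, Ncapg2 was already called higher (0.97 ± 0.15, adjusted p = 0.00107) and Ncapd2 lower (-0.84 ± 0.23, adjusted p = 0.0204). These were 1 of 8 in each direction, beside 10.7% higher and 17.9% lower of all genes. Of 11 cohesin genes, which hold the sister chromatids together, 1 was higher and 0 lower, with a median of -0.030, a share higher near that of all genes (13.6%). The one called was Cdca5 (sororin, 1.23 ± 0.15, adjusted p = 1.35e-04), which protects cohesin until anaphase, and Esco2, the enzyme that acetylates cohesin in S phase, had a larger estimate that did not pass (1.70 ± 0.63, adjusted p = 0.0665). The list of the anaphase-promoting complex core and other regulators, among them Fzr1 and Fbxo5, had 2 of 16 genes higher and 0 lower, with a median of 0.14. Those higher were Cdc16 (0.44 ± 0.11) and Anapc4 (0.32 ± 0.11). The count was close to the share over all genes, beside the changes of 1.74 for the activator Cdc20 and 2.28 for the partner Ube2c of the complex.

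Among other mitotic kinases, phosphatases and their brakes 5 of 8 were called higher and 0 lower, with a median of 0.61, and of the 6 present on every day 0 array 3 were higher. Pbk, a kinase of proliferating cells, had signals of 227, 246 and 189.6 on day 0, 438, 372 and 231 on day 1 and 1012, 1121 and 1153 on day 3 (2.32 ± 0.21 on day 3, adjusted p = 2.20e-05). Mastl, the kinase that restrains the phosphatase opposing CDK1, changed by 2.09 ± 0.36, with 1 of 3 day 0 arrays present. Ccnf, the F-box protein cyclin F, was absent on all day 0 arrays and at least 4.31-fold higher on day 3, at signals of 52.8, 54.6 and 71.7, and passed only through day 3. Ccnf was also called higher on day 1 (adjusted p = 0.0123).

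Replication genes of S phase were called higher for 12 of 23 on day 3, with 0 lower and a median of 0.41. Tk1 and Rrm2, which make DNA precursors, changed by 2.09 ± 0.16 and 1.54 ± 0.15, with day 1 estimates of 0.20 and -0.10 (adjusted p = 0.343 and 0.642). On day 1, 3 of the 23 were called higher and 0 lower, a share higher that was close to the 10.7% of all genes (17.9% lower): Gins2 (1.53 ± 0.25), Gins1 (0.82 ± 0.20) and Cdc45 (0.75 ± 0.26, adjusted p = 0.0495), parts of the replicative helicase, of which the last pair is named because of these values. Gins2 gave 135, 119 and 92.0 on day 0, 405, 405 and 215 on day 1 and 459.9, 371 and 399.9 on day 3, so that it was higher on day 1 as well as on day 3, and day 3 was not called against day 1 (0.32 ± 0.25, adjusted p = 0.408).

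Of 13 transcription factors of cell cycle genes 3 were higher on day 3 and 1 lower, with a median of 0.22, where 13.6% of all genes were higher and 12.5% lower. Those higher were E2f8, a repressor of the E2F family (1.61 ± 0.27), Mybl2 (B-MYB), which joins the MuvB core at CHR promoters (1.15 ± 0.31), and E2f3 (0.77 ± 0.14), of which E2f3 alone was present on every day 0 array and E2f8 passed only through day 3. The one lower was Rbl2 (p130), the pocket protein of the DREAM complex, with 842, 818 and 986 on day 3 against 1244, 1266 and 1165 on day 0 (-0.48 ± 0.12, adjusted p = 0.0159). Foxm1, another activator of mitotic genes, was not tested. Among 9 genes of CDK inhibition and quiescence 0 were higher and 3 lower, with a median of -0.34, beside the same shares over all genes: Cdkn1c (p57) gave 355, 505 and 389 on day 3, against 989.9, 1444 and 1148 on day 0 (-1.52 ± 0.22, adjusted p = 5.41e-04), Btg2 changed by -0.72 ± 0.13 and Ccng2 by -0.34 ± 0.10.

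**Figure D5:**
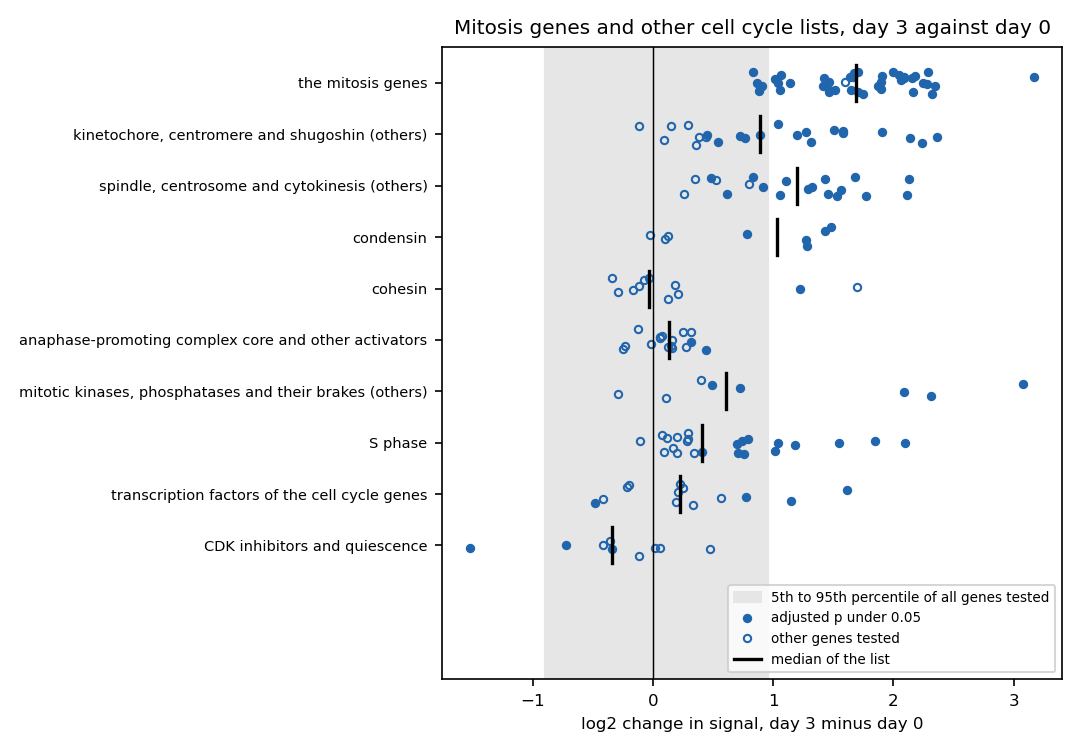
Log2 change of day 3 against day 0 for the 42 members and for 9 other lists of cell cycle genes, 1 point per gene (filled, adjusted p under 0.05) with the list's median as a bar. The grey band holds the 5th to 95th percentile of all genes tested, between -0.90 and 0.96, and the median bars of the members, of the spindle list and of condensin lie beyond it at 1.69, 1.20 and 1.03.

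The makeup of the SVF changed over the same days, and in RNA of a cell mixture fewer cells of a type and less RNA per cell cannot be told apart. The stromal markers (9 of 9 measured) and endothelial markers (8 of 8) were present on every array. Of 5 adipocyte markers, 3 were present on every day 0 and day 1 array and 2 on every day 3 array, while Lep and Retn were absent on all arrays. On day 3 against day 0, 1 of 9 stromal markers was called higher and 4 lower. Endothelial markers had 0 of 8 higher and 2 lower, and the 3 adipocyte markers tested 0 higher and 3 lower, beside 13.6% and 12.5% of all genes. The summed signal of 6 activated fibroblast markers was 29611 to 30032 on day 0, 19821 to 23043 on day 1 and 40326 to 44576 on day 3. These markers did not move as one. Against day 0, 3 of the 6 were called higher and 0 lower on day 3, and 2 higher and 2 lower on day 1. Macrophage and monocyte markers (9 genes) summed to 53712 to 62808 on day 0, 79508 to 97460 on day 1 and 80981 to 97456 on day 3, and neutrophil markers (6 genes) to 1791 to 2002 on day 0, 39509 to 69217 on day 1 and 8826 to 19998 on day 3. Both sums stood above their day 0 ranges on days 1 and 3. Of the 9 macrophage and monocyte markers, 6 were called higher and 1 lower on day 1, and 6 higher and 0 lower on day 3. Of the 6 neutrophil markers, 5 were called higher on day 1 and 4 on day 3, with 0 lower. Of all genes, 10.7% were higher and 17.9% lower on day 1. B cell markers (5 genes) summed to 9388 to 14449 on day 0, 4195 to 9060 on day 1 and 2879 to 5544 on day 3, with Pax5 absent on days 1 and 3. T cell markers (5 genes) summed to 14989 to 18382 on day 0, 3904 to 10808.5 on day 1 and 5170 to 7574 on day 3. The part of any of these cell types in the change of the members was not tested.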

How the data were processed

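RNA of SVFs from 9 mice, 3 per day, was measured on Mouse430_2 arrays. The authors summarised the probes with MAS5 and deposited, for each of 45101 probe sets, a signal on a linear scale, scaled so that the mean after 2% trimming at each end is 500, with a detection call and a detection p-value. No genome build is given for the arrays in the sources used here. The deposited signal intensities were log2-transformed here with no offset. Probe sets named for exactly 1 gene were used (34945, with 932 of several symbols, 9160 of none and 64 controls left out), a filter kept the 24920 probe sets that all 3 arrays of some day called present, and the brightest passing probe set stood for its gene.

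Arrays were fitted in limma 3.58.1 (lmFit, contrasts.fit, eBayes with a variance trend; R 4.3.3, with data.table, version 1.17.8), all 9 in 1 fit with day as factor and 6 residual degrees of freedom. P-values are two-sided and Benjamini-Hochberg adjusted over 11796 genes. They measure the spread between mice, and 3 arrays per day limit the precision. Between 24106 and 26299 probe sets were present per array, the actin 3'/5' ratio was 1.15 to 1.32, and arrays of a day correlated at 0.971 to 0.988. The Gapdh 3'/5' ratio differed by day, at 0.537 to 0.592 on day 0, 0.671 to 0.693 on day 1 and 0.633 to 0.709 on day 3. Its bearing on the changes was not tested. The ± of a log2 change is its standard error in limma. A fold written with at least sets the brighter day against a floor for the dimmer day, on which no array called the probe set present. The floor on each array is the higher of the signal and the lowest signal called present there.

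The members, lists, tests and promoter motifs were chosen with earlier results of these data known. Named with all values are the 2 members of each role with the greatest change on day 3, members not called on day 3 and members called on day 1 (22 in all), and up to 3 called genes of each other list. The fit was tested on simulated data. Alternatives were 2 rescalings, 16 or 64 added to the signals, 2 other filters, other choices of probe sets, no variance trend, array weights, the 6 arrays compared alone, a replicate block, an adjusted p under 0.01, a 2-fold limit, the methods' analysis of variance and leaving out each array. Restricting members and listed genes to those present on all day 0 arrays was added after the data were seen. Promoter windows are RefSeq's.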

Additional observations from a re-analysis of the deposited data

How the results depend on the processing

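The rise on day 3 kept its direction under every alternative run: 36 to 42 members were called higher against day 0 where at least 40 were tested, 33 of 33 when only members present on all 9 arrays, by any passing probe set, or on all day 0 arrays were kept, and 0 lower. Against day 1 the number was 37 to 41 of at least 40, and 32 of 33. The median against day 0 fell to 1.45 with 64 added to the signals and ran between 1.56 and 1.89 over the arrays left out. The median against day 1 was 1.66 after quantile normalization and 1.51 with 64 added. Leaving out an array gave 41 to 42 members against day 0 and 40 to 41 against day 1.

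On day 1 the count of members called higher (1) became 2 after quantile normalization, median centring, array weights, the replicate block or without probe sets shared between transcripts, and 0 with the 6 arrays compared, an adjusted p under 0.01, a 2-fold limit or any analysis of variance. The count called lower (4) became 2 after either rescaling, with no filter, with presence on all 9 arrays, with the 6 arrays compared or at an adjusted p under 0.01, 7 with all probe sets of a gene averaged, 1 with the one-way analysis of variance at an unadjusted p and 2-fold, and 0 with the other 2-fold limits. Leaving out an array gave 0 to 3 higher and 2 to 7 lower, and medians between -0.19 and -0.0079. The median turned to 0.095 after quantile normalization and 0.063 after median centring, and that of all genes to -0.035 and 0.044. Median centring moved the split of all calls on day 1, with 34.3% of them lower, against 62.5% as deposited.

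Deviations from the day mean correlated at -0.15 to 0.33 between same-numbered arrays of different days and at -0.40 to 0.31 between differently numbered arrays. The methods name 3 individual mice per time point, so the numbers pair no mice. The replicate block left 41 members higher on day 3 against day 0. Bub1b was called higher against day 0 with 16 added to the signals (adjusted p = 0.0266) and in 5 other settings. Detection calls limit what can be read of Plk1, Bub1b, Kif4 and Cdc25c, since no day 1 array called their probe sets present. The causes of these shifts were not tested.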
